A study of Sus scrofa with 3 samples.

Results

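miR-6529 is a conserved miRNA of this series, which was found in pig through a precursor of cattle, bta-mir-6529. Its members are the rows whose listed precursors of other mammals carry this number, which gave 2 of the 152 listed miRNAs, both from 1 of 107 genomic positions. These are the 5p arm (miR-6529-5p) and the 3p arm (miR-6529-3p) of the same hairpin. The 5p arm was highest in the intermediate and the 3p arm in the white muscle, where the 3p arm reached 21.2% of the reads of both arms, against 4.96% in the intermediate and 2.60% in the red muscle. The miRNA was chosen by the read counts of its arms in the 3 libraries, which had been seen to differ in opposite directions, so the counts and the arm ratios are given as a description with intervals and without tests.

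Small RNA was sequenced from 3 skeletal muscles of female Landrace pigs at 210 days of age, with no treatment named for any group. The *peroneal longus* (PL) stands for the red, the *psoas major* muscle (PMM) for the intermediate, and the *longissimus dorsi* muscle (LDM) for the white fiber type. There is 1 library for each muscle, that of PL made from RNA pooled over 3 pigs, so the spread between animals cannot be estimated and every interval covers counting error only. PMM and LDM data were taken over from earlier work on the same pigs while PL was sequenced later, and a difference of PL from the other muscles cannot be told apart from that difference in origin.

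A miRNA is cut from a hairpin precursor, first in the nucleus by Drosha and then in the cytoplasm by Dicer. The short duplex that remains holds a strand from each side of the hairpin, the 5p and the 3p arm. Usually a single strand is kept in the Argonaute protein and the other is degraded, but both can be retained, and the preferred arm of a miRNA can differ between tissues. Target mRNAs are recognized mainly through the seed, bases 2 to 8 of the miRNA, so the arms of a hairpin act on different sets of targets.

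The mature sequences, as listed and written in DNA letters, are shown with the seed in capitals, since the arms differ in this part, through which targets are recognized.

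miR-6529-5p: gAGAGATCagaggcgcagagt

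miR-6529-3p: cCTGTGCCttttacctcttta

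The listed precursor is shown with both mature arms in capitals, so that their place in the hairpin can be read.

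mir-6529 precursor: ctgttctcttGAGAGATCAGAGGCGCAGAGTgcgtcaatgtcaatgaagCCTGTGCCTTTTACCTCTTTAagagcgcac

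Both mature sequences are 21 nt long, against a median of 22 nt over the 145 different sequences of the table. Each was found exactly and once within the precursor of 79 nt, the 5p arm at bases 11 to 31 and the 3p arm at bases 50 to 70. The arms are thus 18 bases apart. The GC content was 57.1% for miR-6529-5p and 42.9% for miR-6529-3p, on either side of the median over all sequences of the table (45.8%). No other listed miRNA had the seed of either arm. The closest other sequence of the table was 8 edits away from the 5p arm and 9 edits away from the 3p arm, so reads of another listed miRNA are not near-identical to either. Known porcine miRNAs and the genome were not searched here.

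Folded with RNAfold, the precursor formed a hairpin of 28 base pairs with a minimum free energy of -30.1 kcal/mol. Of these pairs, 15 joined the 5p arm to the 3p arm, and 6 bases of the 5p arm were unpaired. In the 3p arm 17 bases were paired, some of them with bases outside the 5p arm, such as its first base with base 32, and 4 were unpaired. The first base of the 5p arm paired with base 69, so the 3p arm reached 1 base past it. On the loop side the last 3 bases of the 5p arm were unpaired. There the 5p arm ended 1 base short of base 32, the partner of the first base of the 3p arm. The energy per base of the precursor was -0.381 kcal/mol, against a median of -0.416 kcal/mol over the 135 listed precursors, of which 87 were lower. The arms of miR-6529 thus face each other in the predicted hairpin. Pairing between the arms was not computed for the other precursors.

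The table places the precursor on the plus strand of chromosome 12 from 149441291 to 149441369 (Sscrofa10.2), a span of 79 bases that equals the listed length. This chromosome is in doubt. The start lies past the last gene that RefSeq places on chromosome 12 of another assembly (Sscrofa11.1). Of the 4 positions listed on chromosome 12, 3 start past it, miR-6529 included, as do 6 positions listed on other chromosomes for their last genes. Whether it lies in a gene was not analysed here.

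The 5p arm had 1112 reads in PMM, 620 in LDM, and 300 in PL. Within the conserved class it was among the most abundant in each library, in place 2 by reads in PL and PMM and in place 3 in LDM. This class holds miRNAs found through precursors of other mammals, and the known porcine miRNAs, which the study lists apart, are not in it. The places given here are thus not places among all miRNAs of the muscle. The 3p arm had 167 reads in LDM, 58 in PMM, and 8 in PL. By reads it was in place 8 in LDM, 19 in PMM, and 38 in PL. The 5p arm had more reads than the 3p arm in every library.

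For levels, reads were scaled to 1 M raw reads of the whole library (RPM). The totals were 18.46 M raw reads in PMM, 16.62 M in LDM, and 9.17 M in PL. miR-6529-5p was at 60.2 RPM in PMM (95% exact Poisson interval 56.7 to 63.9), 37.3 RPM in LDM (34.4 to 40.4), and 32.7 RPM in PL (29.1 to 36.6). Its order was thus PMM, LDM, and PL, and the intervals of LDM and PL overlapped. miR-6529-3p was at 10.05 RPM in LDM (8.58 to 11.7), 3.14 RPM in PMM (2.39 to 4.06), and 0.872 RPM in PL (0.377 to 1.72). The order of the 3p arm was LDM, PMM, and PL, and no intervals of neighbors overlapped. Where 3 reads are taken as a limit, this is 0.163 RPM for PMM, 0.181 RPM for LDM, and 0.327 RPM for PL, so the 3p arm was above it in each library, least so in PL. With both arms summed, the level of miR-6529 was highest in PMM with 63.4 RPM (59.8 to 67.1), followed by LDM with 47.4 RPM (44.1 to 50.8) and PL with 33.6 RPM (29.9 to 37.6).

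**Figure D1:**
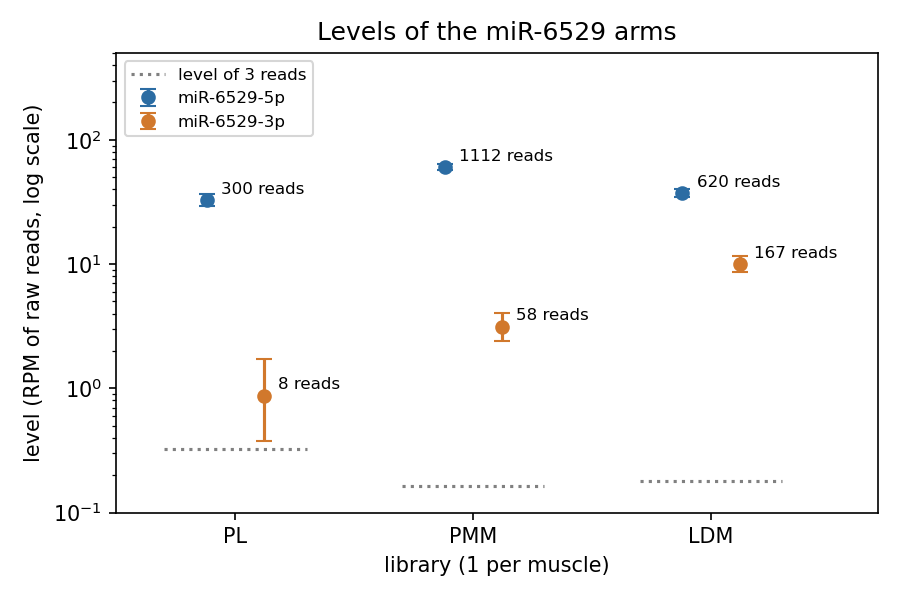
Levels of miR-6529-5p and miR-6529-3p in RPM on a log axis, with 1 library per muscle, points labelled with their reads, and bars for the 95% exact Poisson interval. Dotted lines mark the level of 3 reads in each library. The 5p arm is highest in PMM at 60.2 RPM, whereas the 3p arm is highest in LDM at 10.05 RPM and lowest in PL at 0.872 RPM.

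The arms differed in the muscle where they were highest, PMM for the 5p arm and LDM for the 3p arm. For miR-6529-5p, PMM was 1.61-fold above LDM (95% interval 1.46 to 1.78, exact binomial). Of the 108 unique miRNAs with at least 3 reads, 52.8% were over 1.5-fold higher in PMM than in LDM, so a difference of this size was common in the table. For miR-6529-3p, LDM was 3.20-fold above PMM (2.36 to 4.39). Over 1.5-fold higher levels in LDM were found for 17.6% of the 108 miRNAs. These shares depended on the library total, and with the trimmed mean of M values (TMM) both were 33.3%. The median log2 fold of PMM over LDM across these miRNAs was 0.67, and that of miR-6529-5p (0.69) was close to it, while that of miR-6529-3p was -1.68. Another library total moves all of these values alike, so their distances from the median stay.

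Against PL, both arms were higher in PMM, so the arms did not move in opposite directions there. The level in PMM was 1.84-fold that in PL for the 5p arm (1.62 to 2.10) and 3.60-fold for the 3p arm (1.71 to 8.73). Of all 108 miRNAs, 43.5% were over 1.5-fold higher in PMM than in PL, and 34.3% were over 1.5-fold higher in PL. With the sum of the conserved reads as the total, these shares were 65.7% and 13.0%. Between LDM and PL, the 5p arm was at 1.14-fold (0.992 to 1.31), an interval that includes equal levels, and the 3p arm was 11.5-fold higher in LDM (5.71 to 27.1). Over 1.5-fold higher levels in LDM than in PL were found for 41.7% of the miRNAs, and higher levels in PL for 40.7%, against 66.7% and 21.3% with the summed conserved reads. The 3p arm in PL rests on 8 reads, which sets the width of its intervals. The folds against PL of the 5p arm depended on the library total. With the totals tried, its log2 fold of PL over PMM ranged from -2.42 to -0.45, and that of PL over LDM from -1.97 to 0.0034, while the 3p arm was over 1.5-fold lower in PL with each of them.

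The share of the arms within a library needs no library total, since both arms come from the same reads. The 3p arm made up 21.2% of the miR-6529 reads in LDM (167 of 787, 95% Clopper-Pearson interval 18.4% to 24.2%), 4.96% in PMM (58 of 1170, 3.79% to 6.36%), and 2.60% in PL (8 of 308, 1.13% to 5.05%). The interval of LDM lay apart from those of PL and PMM, which overlapped each other. In reads of the 5p arm per read of the 3p arm, this was 3.71 in LDM (3.12 to 4.43), 19.2 in PMM (14.7 to 25.4), and 37.5 in PL (18.8 to 87.7). Relative to LDM, the 5p to 3p ratio was higher by 5.16-fold in PMM (3.74 to 7.20, exact conditional interval) and by 10.1-fold in PL (4.91 to 24.1). Between PL and PMM it was 1.96-fold higher in PL, with an interval that includes no difference (0.916 to 4.79).

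**Figure D2:**
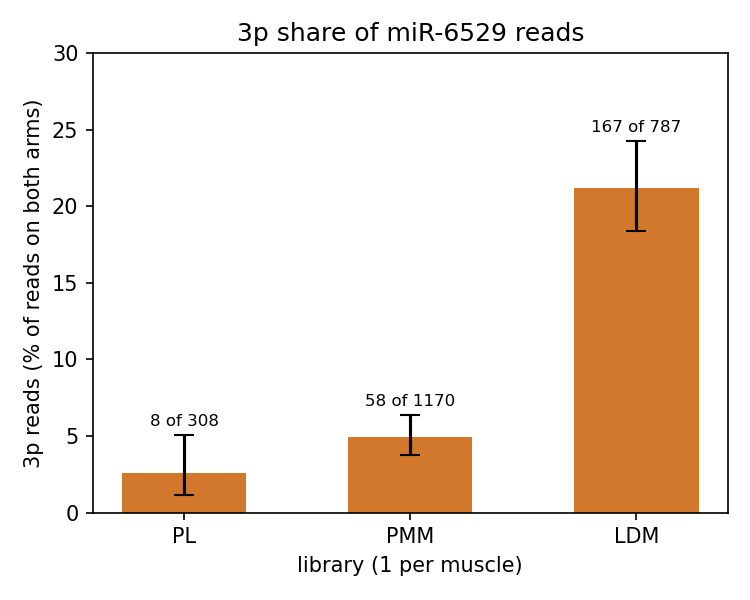
Share of the 3p arm in the reads of both miR-6529 arms, in percent, for the library of each muscle, with 95% Clopper-Pearson intervals and the reads above each bar. LDM stands at 21.2%, while PL (2.60%) and PMM (4.96%) have overlapping intervals.

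The larger 3p share in LDM went with both a lower 5p level and a higher 3p level than in PMM. From PMM to LDM, the 5p level was lower by 0.69 and the 3p level higher by 1.68 on the log2 scale. The sum of both arms was 1.34-fold lower in LDM than in PMM (1.22 to 1.47). From PL to LDM, the 5p level was higher by 0.19, with an interval that includes equal levels, and the 3p level by 3.53. The arms differ in end sequence and GC content, and the part of these in the read counts was not tested. Whether length variants of an arm are counted in its reads is not given in the sources used here.

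The opposite direction of the arms between PMM and LDM held with each library total that was tried, but the size of the 5p difference did not. A total set on the median log2 fold of the 108 miRNAs (0.67) was not tried, and miR-6529-5p (0.69) hardly differed from that median. The direction of the 5p arm thus depends on the choice of total. In place of the 1.61-fold difference with raw reads, miR-6529-5p was at 1.37-fold in PMM over LDM with the sum of the conserved reads as the total, 1.37-fold with these but without miR-26b-5p, 1.28-fold with median-of-ratios size factors, and 1.15-fold with TMM. These are all under the 1.5-fold that the study uses. The log2 fold of miR-6529-3p ranged from -2.17 with TMM to -1.68 with raw reads, so this arm was over 1.5-fold higher in LDM throughout. Of the level differences between these libraries, that of the 3p arm thus stayed past 1.5-fold with each total, and that of the 5p arm did so only with raw reads.

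**Figure D3:**
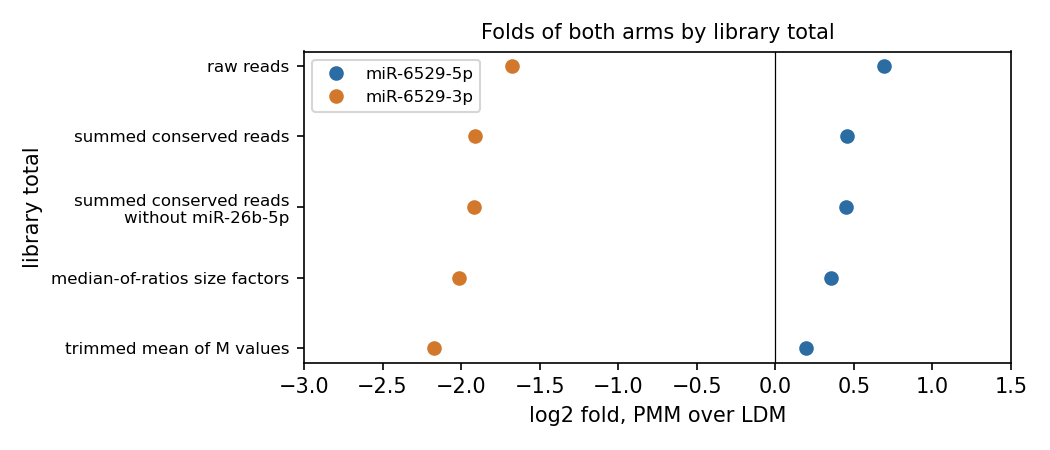
Log2 fold of PMM over LDM for each miR-6529 arm (x axis) with each of the library totals that were tried (y axis). The 5p arm stays between 0.20 and 0.69 and the 3p arm between -2.17 and -1.68. The distance between the arms is 2.37 with every total by construction, since the total cancels in it.

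To see how the arms of other miRNAs behaved, the 44 positions that list both arms were examined. Of these, 14 had at least 10 reads on each arm over PMM and LDM together. The change of the arm ratio of miR-6529 was 2.36 on the log2 scale with 0.5 read added to each arm, in place 1 of the 14, whose median size was 0.71. This place comes from the counts by which the miRNA was chosen, and nothing is read from it. With a minimum of 3 reads on each arm, 28 positions were compared and miR-6529 was in place 4. The next of the 14 were miR-411c at 1.87 and miR-2904 at -1.59, of which miR-411c had 1 read of the 5p arm in LDM, and miR-2904 was the other way, with a larger 5p share in LDM. The longest run of bases shared by the arms was 2 for miR-6529 and 8 for miR-2904. Both arms past 1.5-fold in opposite directions was met by 1 of the 14 positions (7.14%), which is miR-6529 itself, the pattern it was chosen for.

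The arm changes against PL are given in the same way. Between PL and PMM, miR-6529 was in place 13 of 17 positions by the size of the arm change (0.89, against a median of 2.46). The largest changes were those of miR-2887 (5.10, with arms that share a run of 17 bases), miR-539 (-4.68), and miR-716a (4.05), and arms in opposite directions were found for 23.5% of the positions, namely miR-539, miR-716a, miR-330, and miR-2904. Some of these rest on few reads. miR-716a had 5 reads of the 5p arm in PL and 5 in PMM, so that its 5p difference comes from the library totals alone, and miR-539 had 3 reads of the 5p arm and 10 of the 3p arm in PL and 4 of the 3p arm in PMM. With at least 20 reads on each arm, 2 positions in place of 4 had opposite arms. Between PL and LDM, miR-6529 was in place 7 of 14 (3.25, against a median of 3.10), after miR-2887 (4.49), miR-2904 (-4.38), miR-539 (-4.06), and 3 others. Arms in opposite directions were found there for 35.7% of the positions, which were miR-2904, miR-539, miR-3591, miR-590, and miR-330. Of these, miR-3591 had 1 read of the 3p arm in PL and miR-539 had 3 of the 3p arm in LDM. The 5p arm of miR-3591 had 6 reads in PL and 6 in LDM, so its difference comes from the library totals alone. Reads in PL and LDM were also near each other for the 3p arm of miR-590 (105 and 95) and the 5p arm of miR-330 (21 and 17). With at least 20 reads on each arm there were 3 in place of 5. The median change of the arm ratio was larger in both pairs with PL than between PMM and LDM. The positions compared differ between the pairs, and several arms in PL, the library with the fewest raw reads, have few reads. The later sequencing of PL also cannot be told apart from the muscle here.

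**Figure D4:**
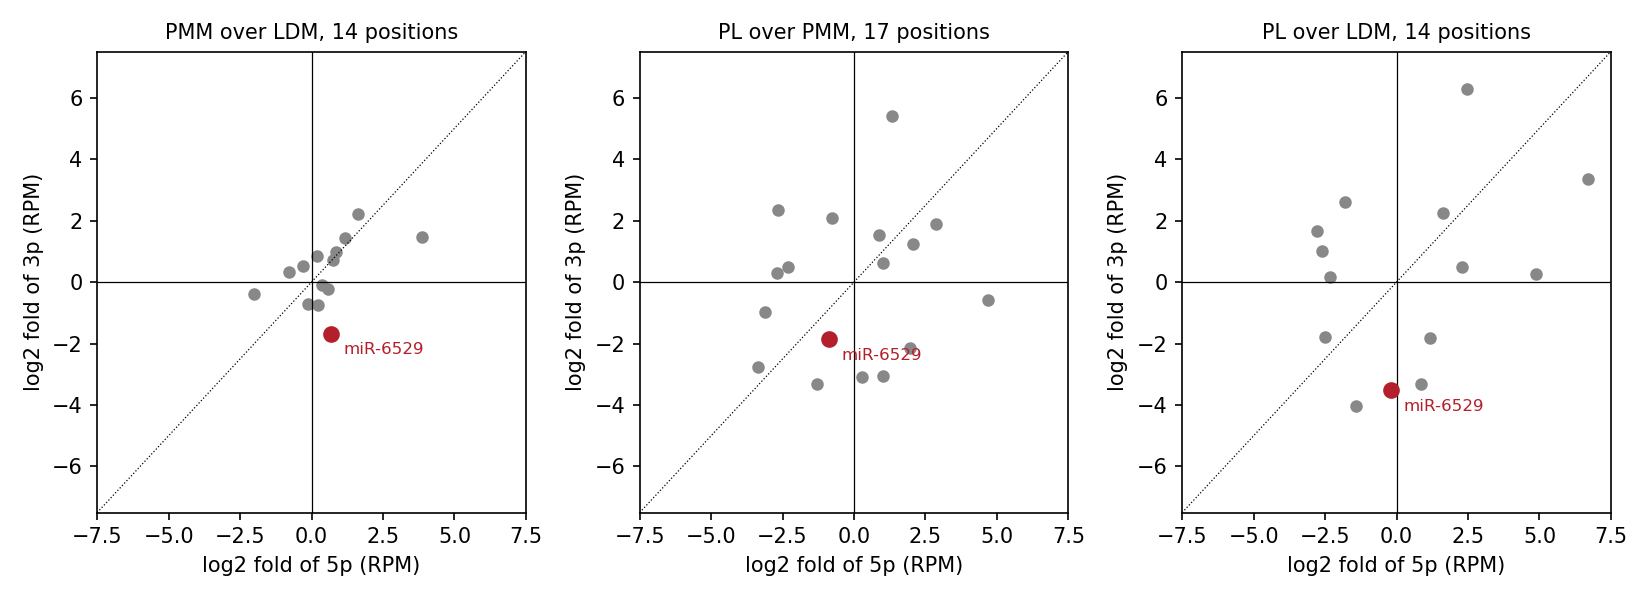
Log2 fold of the 3p arm (y axis) against that of the 5p arm (x axis) in RPM, in the 3 pairs of libraries. Positions have at least 10 reads on each arm over both libraries of a pair together. Each point is a position, the dotted line marks equal change of both arms, and miR-6529 is in red. In PMM over LDM, miR-6529 lies in the quadrant of a higher 5p and a lower 3p arm (0.69 and -1.68). In both comparisons of PL it lies below the line, with the 3p arm lower in PL. The 5p arm is lower in PL than in PMM, and its interval for PL over LDM includes equal levels.

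The 5p share of miR-6529 lay between those of miR-26b and miR-1, which favor opposite arms. miR-26b, a member of the miR-26 family of which the 5p arm is the guide, had 99.3% of its reads on the 5p arm in LDM, 99.7% in PMM, and 99.8% in PL. miR-1, a muscle miRNA that acts through its 3p arm, had 2.51%, 3.78%, and 13.7% on the 5p arm, respectively. The study also reports miR-1 among the known porcine miRNAs, so these shares cover only its reads in the conserved class. They are not the arm use of miR-1 in the whole library. For miR-6529 these shares were 78.8%, 95.0%, and 97.4%. These 3 positions had the most reads of those with both arms listed. The reads of miR-6529 were thus mostly on the 5p arm in all libraries, and its 3p share in LDM (21.2%) was above the share of the lesser arm of miR-1 (2.51%) or of miR-26b there. In PL the 3p share was 2.60%, below the 13.7% of the lesser arm of miR-1, which rests on 7 reads. Of the 8 positions with the most reads, miR-590 had 56.2% of its reads on the 5p arm in LDM, miR-5105 had 60.6%, and miR-485 had 23.7%. In miR-660 and miR-716a nearly all reads were on a single arm, with 98.8% and 0.447% on the 5p arm in LDM. The listed arms of miR-5105 share a run of 20 bases, and the lesser-arm share of miR-485 (31 reads against 100 of the 3p arm) lies within the interval of miR-6529.

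The profiles over the 3 libraries were also compared with those of the 45 other conserved miRNAs with at least 30 reads, by the distance between centered log2 levels. Such a likeness rests on 3 values, and says nothing of shared control. The nearest to miR-6529-5p were miR-655-3p (distance 0.35), a miRNA of the imprinted DLK1-DIO3 cluster, miR-200b-3p (0.46), known from epithelial cells, and miR-223-3p (0.47), known from myeloid cells. miR-655-3p was highest in PMM with 6.77 RPM, against 4.80 RPM in PL and 3.97 RPM in LDM, as was miR-6529-5p. miR-200b-3p had 15 reads in PMM, 13 in LDM, and 5 in PL, so its place rests on few reads. With at least 100 reads, only miR-655-3p of these stayed among the nearest, joined by miR-154b-5p and miR-409-3p.

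The nearest to miR-6529-3p were miR-2904-5p (0.75), miR-33a-5p (0.85), and miR-590-5p (0.99). miR-33a-5p, which lies in an intron of the sterol regulator gene SREBF2 in human and acts on cholesterol export, had 17.2 RPM in LDM, 9.75 RPM in PMM, and 3.49 RPM in PL. miR-2904-5p had 10.4 RPM, 2.60 RPM, and 1.53 RPM, respectively. Both have the order of miR-6529-3p, with LDM highest and PL lowest. The distance between the arms of miR-6529 was 2.38, which put the 3p arm in place 31 of the 45 by nearness to the 5p arm.

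Of the 7 muscle miRNAs looked for, 2 were in this table, miR-1 and miR-208a. It holds only miRNAs assigned through precursors of other mammals, and the study lists known porcine miRNAs apart. Among those it reports miR-1, miR-133a, miR-208b, and miR-499, so absence from this table is not absence from the muscle. The counts given here are those of this class alone, not the whole level of a miRNA in the muscle. The other muscle miRNAs were not analysed here. miR-1-3p had 1318 reads in LDM, 892 in PMM, and 44 in PL, and miR-208a-3p, which is encoded in a myosin heavy chain gene, had 1, 13, and 118. These markers thus ran in opposite directions, miR-1-3p from 79.3 RPM in LDM over 48.3 RPM in PMM to 4.80 RPM in PL, and miR-208a-3p from 12.9 RPM in PL to 0.704 RPM in PMM and 0.0602 RPM in LDM. Their arms summed to 81.4 RPM in LDM, 51.1 RPM in PMM, and 18.8 RPM in PL, of which miR-1-3p made up the most in LDM and PMM and miR-208a-3p the most in PL. miR-6529-3p had the order of miR-1-3p, and the part of the markers in its levels was not tested. The whole table held 12463 reads of LDM, 16286 of PMM, and 23583 of PL. Of these, miR-6529-5p made up 4.97%, 6.83%, and 1.27%, and miR-6529-3p 1.34%, 0.356%, and 0.0339%, respectively. In bulk tissue, fewer cells of a type and less RNA per cell cannot be told apart.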

How the data were processed

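Small RNA reads of PL, PMM, and LDM were filtered by the authors (adapter found, 16 to 29 nt, no junk reads) and aligned by local BLAST, first against the miRBase 19.0 hairpins of pig and of 24 further mammals, then against the pig assembly Sscrofa10.2 (Sscrofa10 in the heading of the table). The authors deposited whole read counts per conserved miRNA and library, without normalization. The 118 of 456 cells with a mark in place of a number were taken as 0 reads. Raw reads per library, given in the text of the study, served as library totals. The study itself normalized by mappable reads.

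Rows were named by the most common precursor number. Identical mature sequences were merged, keeping the highest value per library. Levels have exact Poisson intervals, shares Clopper-Pearson intervals, folds exact binomial intervals, and changes of arm ratios exact conditional intervals, all at 95%. Where an arm had 0 reads in a library, 0.5 read was added to both values of its fold. Positions were compared between a pair of libraries where each arm had at least 10 reads over both libraries together. Each library also had to hold a read on either arm. The functions were tested on simulated data. The members, the marker list, and the rule for named miRNAs were chosen with earlier results of these data known. Named were both arms, the 3 nearest profiles of each, the 3 positions with the largest arm change per pair and the 3 with most reads, and up to 5 positions per pair with opposite arms. miR-154b-5p, miR-409-3p, miR-5105, miR-485, and miR-660 fall outside this rule and were chosen after their values were seen. TMM trimmed 30% of M values and 5% of A values. Python 3.11.15, numpy 2.4.6, scipy 1.17.1, matplotlib 3.10.9, and RNAfold 2.7.2 were used.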

Additional observations from a re-analysis of the deposited data

How the results depend on the processing

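No paired analysis was possible because there is a single library for each muscle, which also means that none can be left out. The arm shares with Wilson intervals or with every row of the table are the same by construction, since the same reads enter. The arm ratios and their changes with 0.5 read added stayed within their intervals. The 15 pairs between the arms were also found without dangling ends.

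The levels per 1 M of summed conserved reads were, by construction, on another scale. They were 12721 in PL, 68279 in PMM, and 49747 in LDM for miR-6529-5p, and 339 in PL, 3561 in PMM, and 13400 in LDM for miR-6529-3p. The log2 fold of miR-6529-5p in PMM over LDM (0.69) was 0.46 with the summed conserved reads, 0.45 with these but without miR-26b-5p, 0.36 with size factors (median of ratios), and 0.20 with TMM. In PL over PMM (-0.88) it was -2.42 with the summed conserved reads, -0.45 without miR-26b-5p, and -1.20 with TMM. In PL over LDM (-0.19) it was -1.97 with the summed conserved reads, -1.01 with TMM, and -0.53 with size factors, and it turned to 0.0034 without miR-26b-5p. For miR-6529-3p, the log2 fold was -2.17 in PMM over LDM with TMM, and with the summed conserved reads -3.39 in PL over PMM and -5.30 in PL over LDM. Most of the summed reads are those of miR-26b-5p. The cause of these changes was not tested for any of the totals.

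The number of positions with opposite arms between PMM and LDM (1) was 2 with 3 reads per arm, and 0 with a 2-fold threshold, TMM, size factors, and the summed conserved reads with and without miR-26b-5p. Between PL and PMM (4) it was 2 with 20 reads per arm and 2 with the summed conserved reads. Between PL and LDM (5) it was 3 with 20 reads per arm, 2 with the summed conserved reads, and 2 with TMM. The place of miR-6529 by arm change was 4 in place of 1 between PMM and LDM with 3 reads per arm. With 3 and 20 reads per arm, it was 20 and 7 in place of 13 between PL and PMM, and 11 and 4 in place of 7 between PL and LDM, where the number of positions compared also differs.

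The share of miRNAs over 1.5-fold higher in PMM than in LDM (52.8%) was 35.2% over 2-fold, 33.3% with TMM, and 37.0% with size factors, and the share higher in LDM (17.6%) was 33.3% with TMM. With the summed conserved reads, the shares between PL and PMM were 13.0% higher in PL and 65.7% higher in PMM, and those between PL and LDM 21.3% and 66.7%. With TMM, 28.7% were higher in PL than in LDM. Of the 3 profiles nearest to miR-6529-5p, 1 remained with at least 100 reads, and those of miR-6529-3p were the same 3. The arm ratio of PL rests on 8 reads of miR-6529-3p, at a level of 0.872 RPM.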
